A study of Homo sapiens with 9 samples.

Results

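A group of 10 genes that encode secreted plasma carrier and acute-phase proteins was followed across 3 lines of Huh7, a human hepatocellular carcinoma cell line. The genes were SERPINA1, SERPINA3, HP, HPX, TF, ORM1, ORM2, TTR, AHSG and CP. They were taken as a list of names and matched by Ensembl identifier to the deposited count table, in which all 10 were found among 60664 genes. The lines were wild type cells (WT), cells with the genotype vtRNA1-1 KO (1-1 KO) and cells with the genotype vtRNA1-2 KO (1-2 KO), each with 3 mRNA libraries. The deleted genes encode vault RNAs, short noncoding RNAs, and the study asked what each deletion does to the transcriptome of these cells. All lines grew in the same complete medium to the same confluency and received no treatment or cytokine, so no condition with an induced acute phase was among the groups. The WT and 1-1 KO cells came from another laboratory. The 1-2 KO line was 1 clone made from those WT cells by CRISPR/Cas9. Each genotype was therefore a single line, and nothing in the labels ties the 3 libraries of a line to separate experiments, so that the p-values below measure the spread between libraries of 1 line, and an effect of the deletion and other differences between the lines cannot be told apart.

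Hepatocytes make most of the protein of blood plasma, and the genes of this group are among their main secretory products. In the acute-phase response, IL-6-type cytokines acting through STAT3, and IL-1 acting through NF-kB and C/EBP factors, raise the output of positive acute-phase proteins such as alpha-1-antitrypsin, antichymotrypsin, haptoglobin, hemopexin, the orosomucoids and ceruloplasmin. Negative acute-phase proteins such as transferrin, transthyretin and fetuin-A fall in the same response, and the basal expression of both kinds rests on liver transcription factors such as HNF1, HNF4 and FOXA.

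Total counts lay between 32384469 and 41782387 per library, and 17207 genes passed the filter on low counts. The table could not check the genotypes, since VTRNA1-1 had at most 1 count in any of these mRNA libraries and VTRNA1-2 had 0 counts in all of them. The 8 hepatocyte markers were present in every library, with a summed level between 18060 and 18691 CPM (counts scaled to the library size) in WT. The sum was between 33854 and 34565 CPM in 1-1 KO and between 24546 and 26310 CPM in 1-2 KO. ALB and AFP rose most, from means of 2532 and 1759 CPM in WT to 9427 and 8167 CPM in 1-1 KO. In 1-2 KO their means were 4739 and 7419 CPM, and 4 of the 8 markers were called higher and 1 lower, where 54.4% of all tested genes were called. The 6 leukocyte markers summed to between 113 and 114 CPM in WT, between 98.8 and 105 CPM in 1-1 KO and between 19.9 and 20.8 CPM in 1-2 KO, nearly all of it LYZ, with CD68 at 3 counts or fewer in every library. PTPRC, the other tested gene of this list, went the other way, with means of 0.153 CPM in WT, 0.522 CPM in 1-1 KO and 0.998 CPM in 1-2 KO. The 5 endothelial markers summed to between 7.70 and 8.32 CPM in WT, between 6.59 and 7.37 CPM in 1-1 KO and between 0.926 and 1.30 CPM in 1-2 KO, with TEK at the same floor in every library. Most of this sum was PECAM1, with means of 7.57, 6.67 and 0.839 CPM in the same order of lines. Fibroblast and stellate markers summed to between 187 and 198 CPM in WT. Their sum was between 282 and 295 CPM in 1-1 KO and between 118 and 126 CPM in 1-2 KO. The lower sum in 1-2 KO was that of LUM, with a mean of 62.1 CPM there against 157 CPM in WT. LUM was the only 1 of the 5 tested genes of this list called lower in 1-2 KO. There 3 were called higher, and the median log2 fold change was 0.22. Cholangiocyte markers summed to between 312 and 355, between 482 and 496 and between 324 and 431 CPM in the same order of lines. The part of these marker sums in the results below was not tested. The library 1-2 KO replicate 1 stood apart from its replicates, with chi-square values of 15.3 and 16.2 per degree of freedom against them, where the other two had 2.68 between them. Without it no member's call changed, and no member's log2 fold change moved by more than 0.0719. The WT libraries gave 5.05, 10.4 and 6.42 per degree of freedom among themselves, and the 1-1 KO libraries 2.08, 2.35 and 3.48.

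Of the 10 genes, 9 passed the filter and were tested, and SERPINA3 was not, with at most 4 counts in a library. In 1-1 KO against WT, 5 of the 9 were called higher and 3 lower by edgeR's quasi-likelihood test (Benjamini-Hochberg adjusted p under 0.05 over all tested genes), with HP not called. Over all tested genes 63.4% were called in this comparison, 32.5% higher and 30.9% lower. In 1-2 KO against WT, 3 of the 9 were called higher and 5 lower, with SERPINA1 not called, where 54.4% of all tested genes were called, 28.2% higher and 26.2% lower. With so large a share of all genes called, the number of members called says little about them, and the sizes and directions follow gene by gene. When the knockout lines were compared directly, all 9 tested genes were called, 4 of them higher and 5 lower in 1-2 KO than in 1-1 KO, where 65.3% of all tested genes were called, 33.1% higher and 32.2% lower. The median absolute log2 fold change of the 9 genes was 0.67 in 1-1 KO against WT, 0.31 in 1-2 KO against WT and 1.05 in 1-2 KO against 1-1 KO. The same medians over all tested genes were 0.35, 0.27 and 0.37.

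The 10 genes together took between 0.308% and 0.316% of all counts in the WT libraries, between 0.450% and 0.461% in the 1-1 KO libraries and between 0.317% and 0.341% in the 1-2 KO libraries. For 8 members the 3 libraries of 1-1 KO did not overlap with the 3 of WT, which held for 68.9% of all tested genes. The number was also 8 in 1-2 KO against WT (58.4% of all tested genes) and was 9 in 1-2 KO against 1-1 KO (69.8%).

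**Figure D1:**
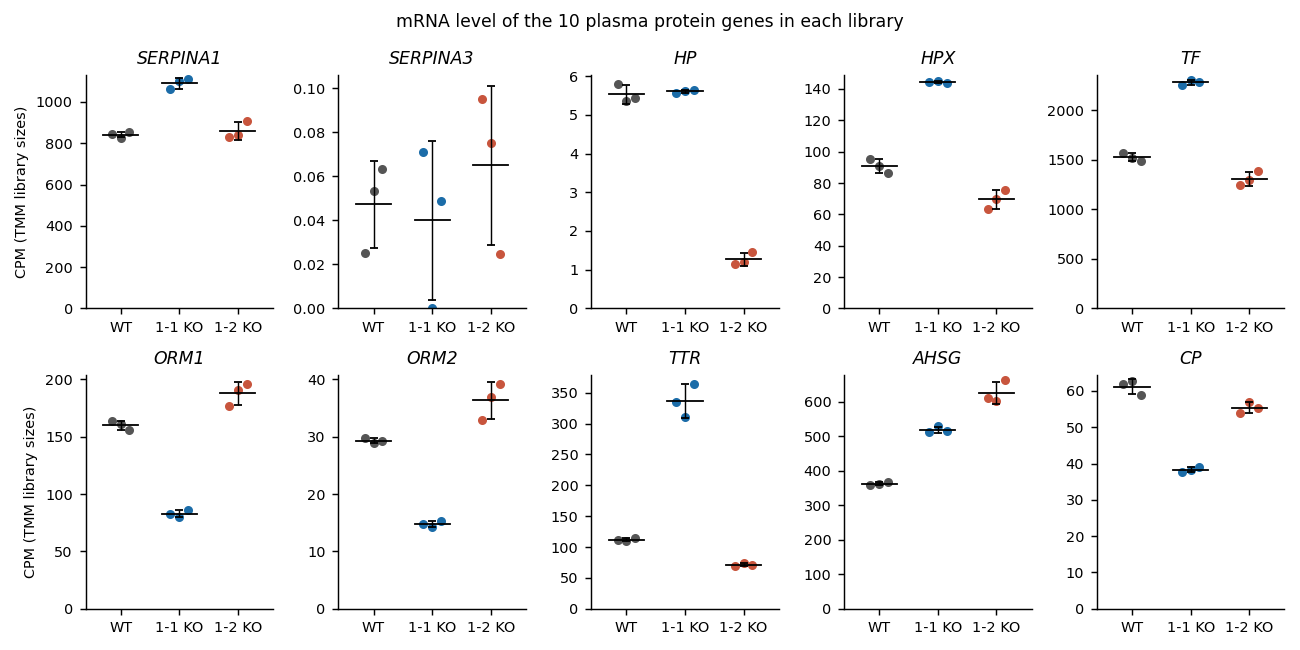
Level of each of the 10 genes in every library, in CPM with TMM library sizes on linear axes that start at 0 and differ between genes, with points for single libraries, a horizontal line for the mean and bars for the SD (n = 3 libraries per line). TTR stood between 310 and 364 CPM in 1-1 KO against 109 to 114 CPM in WT, and HP between 1.14 and 1.45 CPM in 1-2 KO against 5.36 to 5.80 CPM in WT.

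SERPINA1 and SERPINA3 encode protease inhibitors of the serpin family and lie in the same gene cluster. SERPINA1 (chr14:94376747-94390693, GRCh38, minus strand) encodes alpha-1-antitrypsin, the main plasma inhibitor of neutrophil elastase. Its level was 843, 827 and 854 CPM in the WT libraries, 1061, 1101 and 1111 CPM in the 1-1 KO libraries and 831, 839 and 910 CPM in the 1-2 KO libraries. All 1-1 KO libraries were above all WT libraries, whereas those of 1-2 KO and WT overlapped. The log2 fold change in 1-1 KO was 0.38 ± 0.04 (SE, n = 3 libraries per line, adjusted p = 1.40e-06). The 50 tested genes nearest to SERPINA1 on the chromosome had a median log2 fold change of 0.41 in the same comparison, and with that median subtracted SERPINA1 stood at -0.03 (adjusted p = 0.494). In 1-2 KO the log2 fold change was 0.03 (adjusted p = 0.522), with an approximate 95% interval from -0.05 to 0.11. In the direct comparison SERPINA1 was lower in 1-2 KO than in 1-1 KO by 1.27-fold (log2 fold change -0.34, adjusted p = 3.02e-06), where its neighbours had a median of -0.22 and the value after subtraction was -0.0043 (adjusted p = 0.934).

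SERPINA3 (chr14:94612384-94624055) encodes alpha-1-antichymotrypsin, an inhibitor of cathepsin G. Its counts were 1, 2 and 2 in WT, 3, 0 and 2 in 1-1 KO and 4, 3 and 1 in 1-2 KO. It was thus near the floor of 3 counts in all lines, and a difference between the lines was not detectable at this depth. An annotated gene without a symbol, ENSG00000273259, shares 1585 exon bases with SERPINA3 on the same strand and had at most 4 counts.

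In 1-1 KO the tested genes of the cluster on chromosome 14 rose except SERPINA11, and in 1-2 KO their directions differed. All tested genes of chromosome 14 had a median log2 fold change of 0.29 in 1-1 KO and 0.07 in 1-2 KO. SERPINA5, the protein C inhibitor, rose by 1.10 ± 0.04 (log2, SE) in 1-1 KO and had a log2 fold change of -0.03 in 1-2 KO (adjusted p = 0.465), which with the neighbours' median subtracted was called lower (-0.10, adjusted p = 0.0292). SERPINA4, kallistatin, rose by 0.75 in 1-1 KO and fell by 0.71 in 1-2 KO. The annotated starts of SERPINA4 and SERPINA5 coincide, so their reads may be shared. SERPINA10, the protein Z-dependent protease inhibitor, rose by 0.45 and 0.40 in the respective lines, and SERPINA6, corticosteroid-binding globulin, by 0.55 and 0.73. The 50 neighbours of SERPINA4, SERPINA5, SERPINA6 and SERPINA10 had a median of 0.38 in 1-1 KO. With that median subtracted SERPINA10 was not called there (0.07, adjusted p = 0.422). SERPINA11, with at most 38 counts in a library, fell by 0.90 in 1-1 KO and by 1.28 in 1-2 KO, and its call in 1-1 KO was lost without 1-1 KO replicate 3 (log2 fold change -0.67, adjusted p = 0.0506). SERPINA1 itself, between these genes, was called in 1-1 KO alone of the comparisons with WT, and the direct comparison above gives the difference between the knockout lines.

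**Figure D2:**
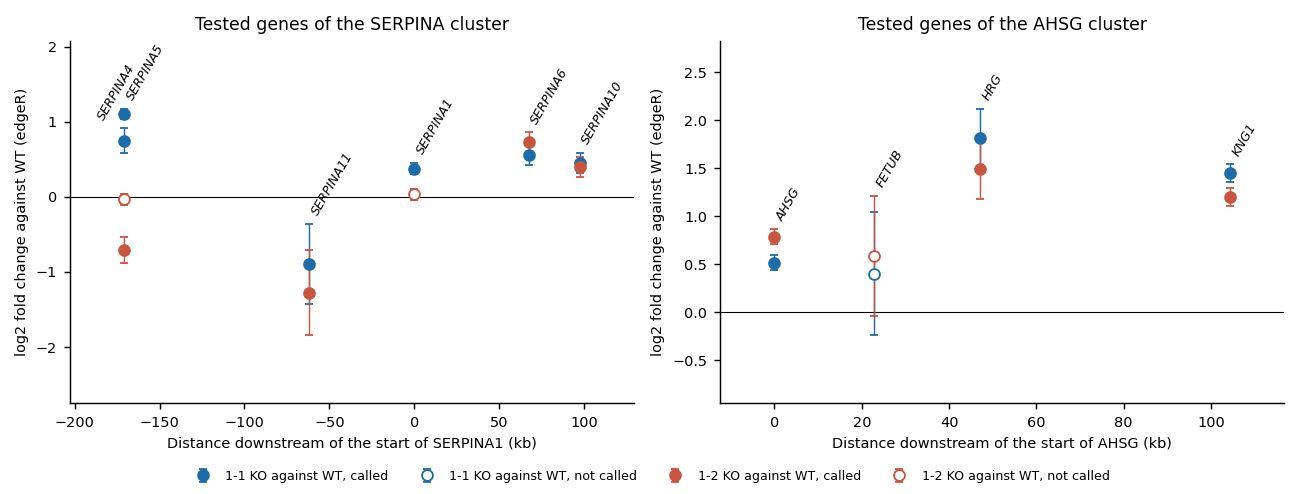
Log2 fold changes against WT (y axis, edgeR, bars for the approximate 95% interval) of the tested genes around SERPINA1 and around AHSG by distance from the start of these genes in kb (x axis), with filled points for calls and open points for genes not called. SERPINA11 lay below 0 in both lines while SERPINA6 and SERPINA10 lay above it, and AHSG, HRG and KNG1 lay above 0 in both lines.

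HP and HPX encode the proteins that take up hemoglobin and heme released from red cells. HP (chr16:72054505-72061055) encodes haptoglobin, which binds free hemoglobin. Its counts were 231, 201 and 171 in WT, 235, 231 and 230 in 1-1 KO and 48, 48 and 58 in 1-2 KO. As CPM these were 5.80, 5.36 and 5.42 CPM in WT, 5.55, 5.62 and 5.64 CPM in 1-1 KO and 1.14, 1.21 and 1.45 CPM in 1-2 KO. The 1-2 KO libraries were all below the others, and those of WT and 1-1 KO overlapped. HP fell by 2.13 ± 0.11 (log2, SE) in 1-2 KO (4.37-fold, adjusted p = 1.48e-09), while the 50 neighbouring genes had a median of -0.19. In 1-1 KO the log2 fold change was 0.02 (adjusted p = 0.881) with an approximate 95% interval from -0.17 to 0.20, and with the neighbours' median of 0.25 subtracted it was -0.23 (adjusted p = 0.0451). In the direct comparison HP was 4.43-fold lower in 1-2 KO than in 1-1 KO (adjusted p = 7.00e-10).

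HPR, the haptoglobin-related gene that starts 8.64 kb from the start of HP, had 29, 29 and 30 counts in WT, 43, 61 and 45 in 1-1 KO and 29, 18 and 24 in 1-2 KO. It was called higher in 1-1 KO (log2 fold change 0.56, adjusted p = 0.0309) and not called in 1-2 KO (-0.48, adjusted p = 0.107). The call in 1-1 KO was lost with DESeq2 (adjusted p = 0.129), with the median of its 50 neighbours subtracted (0.33, adjusted p = 0.196) and without 1-1 KO replicate 2 (0.159), WT replicate 1 (0.103) or WT replicate 2 (0.0869). Of the 50-base words in the main annotated HP transcript, 30.2% also occur in that of HPR, so reads of the pair may be split. With HP and HPR summed the call in each comparison was the same as for HP.

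HPX (chr11:6431049-6442617, minus strand) encodes hemopexin, the heme scavenger of plasma. It stood at 95.5, 90.7 and 86.5 CPM in WT, at 144, 145 and 144 CPM in 1-1 KO and at 63.6, 69.7 and 75.7 CPM in 1-2 KO. The 3 lines did not overlap, with 1-1 KO highest and 1-2 KO lowest. HPX rose by 0.67 ± 0.05 (log2, SE) in 1-1 KO (1.59-fold, adjusted p = 8.49e-08) and fell by 0.39 ± 0.05 in 1-2 KO (1.30-fold, adjusted p = 3.54e-05). The neighbours' medians were 0.05 and 0.11. HPX was 2.07-fold lower in 1-2 KO than in 1-1 KO (log2 fold change -1.05, adjusted p = 6.31e-10). HP and HPX, which serve the same clearance of red cell products, thus had different profiles, HP lower in 1-2 KO and HPX moving in both lines.

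TF and CP encode metal carriers. TF (chr3:133746040-133796641) encodes transferrin, which carries iron to cells. It stood at 1571, 1520 and 1490 CPM in WT, at 2249, 2301 and 2288 CPM in 1-1 KO and at 1244, 1298 and 1384 CPM in 1-2 KO. The lines did not overlap, in the same order as for HPX. TF rose by 0.58 ± 0.04 (log2, SE) in 1-1 KO (1.49-fold, adjusted p = 2.32e-08), where its 50 neighbours had a median of 0.24, and fell by 0.22 ± 0.04 in 1-2 KO (1.17-fold, adjusted p = 3.44e-04). It was 1.74-fold lower in 1-2 KO than in 1-1 KO (log2 fold change -0.80, adjusted p = 6.00e-10). SRPRB, a subunit of the signal recognition particle receptor, shares 122 exon bases with TF on the same strand and had log2 fold changes of 0.48 and -0.18 against WT.

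CP (chr3:149162410-149221829, minus strand) encodes ceruloplasmin, the copper-bearing ferroxidase of plasma. It stood at 62.0, 62.7 and 59.0 CPM in WT, at 37.8, 38.3 and 39.0 CPM in 1-1 KO and at 53.9, 56.9 and 55.3 CPM in 1-2 KO. The 1-1 KO libraries were the lowest, and those of 1-2 KO lay between them and WT without overlap. CP fell by 0.68 ± 0.04 (log2, SE) in 1-1 KO (1.60-fold, adjusted p = 4.09e-09), whereas its 50 neighbours had a median of 0.41. In 1-2 KO it fell by 0.15 ± 0.04 (1.11-fold, adjusted p = 6.55e-03). This small call was lost with scaling by library size alone (log2 fold change -0.0903, adjusted p = 0.0555) and with the neighbours' median subtracted (-0.0874, adjusted p = 0.0803). CP was 1.44-fold higher in 1-2 KO than in 1-1 KO (adjusted p = 3.90e-08). HPS3 lies on the opposite strand, shares 1420 exon bases with CP and moved the other way in 1-1 KO, with a log2 fold change of 0.58, and by -0.20 in 1-2 KO.

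ORM1 and ORM2 encode the orosomucoids, or alpha-1-acid glycoproteins, lipocalins that bind basic and neutral drugs in plasma. They lie side by side on chromosome 9 (ORM1 chr9:114323098-114326479 and ORM2 chr9:114329869-114333251) with starts 6.77 kb apart. Their coding sequences are each 603 bases long and identical at 572 of them (94.9%), and 50.1% of the 50-base words of the ORM2 transcript also occur in that of ORM1. The stretch where they differ most, bases 314 to 403 of the coding sequence, is shown from the GENCODE 44 transcripts because reads that separate the genes must cover such bases. Capitals mark the 18 bases of this stretch that differ.
ORM1: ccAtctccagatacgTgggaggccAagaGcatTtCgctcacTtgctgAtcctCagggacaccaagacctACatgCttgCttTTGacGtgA
ORM2: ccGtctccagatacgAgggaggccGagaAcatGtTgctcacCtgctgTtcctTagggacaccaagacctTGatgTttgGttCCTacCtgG

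ORM1 stood at 163, 161 and 156 CPM in WT, at 82.7, 80.0 and 85.9 CPM in 1-1 KO and at 177, 191 and 196 CPM in 1-2 KO. The lines did not overlap, with 1-1 KO lowest and 1-2 KO highest, the reverse of the order for HPX and TF. ORM1 fell by 0.95 ± 0.04 (log2, SE) in 1-1 KO (1.93-fold, adjusted p = 2.82e-10) and rose by 0.23 ± 0.04 in 1-2 KO (1.17-fold, adjusted p = 3.62e-04). It was 2.27-fold higher in 1-2 KO than in 1-1 KO (log2 fold change 1.18, adjusted p = 2.11e-11).

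ORM2 stood at 29.8, 28.9 and 29.2 CPM in WT, at 14.8, 14.2 and 15.3 CPM in 1-1 KO and at 32.9, 36.9 and 39.2 CPM in 1-2 KO, in the same order of lines and again without overlap. It fell by 0.99 ± 0.06 (log2, SE) in 1-1 KO (1.98-fold, adjusted p = 1.08e-08) and rose by 0.31 ± 0.06 in 1-2 KO (1.24-fold, adjusted p = 6.64e-04). The 2 genes share their 50 neighbours, whose medians were 0.05 in 1-1 KO and 0.12 in 1-2 KO. The ratio of ORM1 to ORM2 counts stayed between 5.01 and 5.62 over the 9 libraries. Summed to 1 feature, the pair was called lower in 1-1 KO and higher in 1-2 KO.

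The 150 bases before the ORM1 start (chr9:114322948-114323097, plus strand, RefSeq promoter table, GRCh38.p14) are shown as the promoter of the orosomucoid gene with the larger counts. Of 7 motifs searched on both strands of the 250 bases before the start, the single match was the TATA motif TATAAA, in capitals, 29 to 24 bases before the start.
ORM1 promoter: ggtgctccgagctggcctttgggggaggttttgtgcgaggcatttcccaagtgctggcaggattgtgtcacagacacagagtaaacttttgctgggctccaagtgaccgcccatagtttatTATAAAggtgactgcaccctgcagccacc

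TTR (chr18:31557009-31598833) encodes transthyretin, which carries thyroxine and, bound to retinol-binding protein, retinol. It stood at 111, 109 and 114 CPM in WT, at 334, 310 and 364 CPM in 1-1 KO and at 69.1, 74.7 and 70.8 CPM in 1-2 KO. The lines were far apart, with 1-1 KO highest and 1-2 KO lowest. TTR rose by 1.59 ± 0.05 (log2, SE) in 1-1 KO (3.02-fold, adjusted p = 9.63e-12), which was the largest absolute log2 fold change of the 9 tested genes in that comparison. Its 50 neighbours had a median of 0.44. In 1-2 KO it fell by 0.64 ± 0.05 (1.56-fold, adjusted p = 1.70e-07), with a neighbours' median of -0.01. It was 4.70-fold lower in 1-2 KO than in 1-1 KO (log2 fold change -2.23, adjusted p = 2.56e-13). RBP4, the retinol-binding protein that travels with it, was chosen after its values were seen and fell by 0.37 in 1-1 KO and by 0.53 in 1-2 KO, so that the partners moved in opposite directions in 1-1 KO.

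AHSG (chr3:186613060-186621318) encodes fetuin-A, which keeps calcium phosphate in solution. It stood at 357, 363 and 368 CPM in WT, at 512, 528 and 515 CPM in 1-1 KO and at 612, 602 and 662 CPM in 1-2 KO. Both knockout lines were above WT without overlap, and 1-2 KO was above 1-1 KO. AHSG rose by 0.52 ± 0.04 (log2, SE) in 1-1 KO (1.43-fold, adjusted p = 4.53e-08) and by 0.79 ± 0.04 in 1-2 KO (1.73-fold, adjusted p = 7.67e-10), and it was 1.21-fold higher in 1-2 KO than in 1-1 KO (adjusted p = 2.72e-05). No other of the 9 tested genes was called higher in both comparisons with WT, which share the WT libraries. Of all tested genes 32.5% were called higher in 1-1 KO and 28.2% in 1-2 KO. The share called higher in both was not counted, so these calls do not set AHSG apart from other genes. The neighbours' medians for AHSG were 0.11 in 1-1 KO and 0.04 in 1-2 KO. Of the genes in its cluster, KNG1, kininogen, rose by 1.45 and 1.20, and HRG, histidine-rich glycoprotein, by 1.82 and 1.49. FETUB, fetuin-B, at 26 counts or fewer, was not called in either line (log2 fold changes 0.40 and 0.59).

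The 150 bases before the AHSG start (chr3:186612910-186613059, plus strand, RefSeq, GRCh38.p14) are shown because this promoter held the most motif matches of those found for the group. Capitals mark 2 FOXA matches (TGTTTNC) and 1 C/EBP match (TTGCNNAA, read on the minus strand).
AHSG promoter: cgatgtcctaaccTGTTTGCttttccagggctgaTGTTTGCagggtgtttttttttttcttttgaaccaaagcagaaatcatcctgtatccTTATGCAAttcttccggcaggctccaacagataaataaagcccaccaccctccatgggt

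Some further matches in the promoter table are shown as windows of 30 bases with the motif in capitals. An HNF4 match (CAAAGTCCA, minus strand) lay 179 to 171 bases before the AHSG start (chr3:186612870-186612899). SERPINA1 had an HNF1 match (GTTAAT, chr14:94388661-94388690, minus strand) and a FOXA match 108 to 102 bases before the start, and HPX had a match to the IL-6 response element (CTGGGAA, chr11:6441045-6441074, minus strand, matched in reverse) and a C/EBP match. This SERPINA1 start lies inside the annotated gene, and the SERPINA1 promoter near the annotated gene start had no match. Annotated exons of the gene itself covered 150 of the 150 bases before this SERPINA1 start and 79 of those before the HPX start. Of the TF promoters, that at chr3:133746143-133746442 on the plus strand had a C/EBP match 98 to 91 bases before its start, with 72 of the 150 bases before the start in annotated TF exons.
AHSG HNF4: ccacagcagcaTGGACTTTGgcagatttct
SERPINA1 HNF1: ggggtgaccttgGTTAATattcaccagcag
HPX IL-6 response element: ggagacagcacaTTCCCAGtagagttggag

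Entries were found for 6 of the 10 genes, with 8 promoters in all, and HP, ORM2, TTR and CP had none. Of all 35116 promoters, 6.23% held the HNF1 motif, 9.05% the C/EBP motif, 9.15% the IL-6 response element, 0.325% the HNF4 motif, 15.5% the FOXA motif and 10.7% the TATA motif within the same 250 bases. The STAT motif TTCNNNGAA, found in 6.57%, had no match in the 8 promoters. A match describes the letters and says nothing of a factor bound there.

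Sorted by their textbook behaviour in inflammation, the group did not move one way. Over all tested genes 32.5% were called higher and 30.9% lower in 1-1 KO, and 28.2% and 26.2% in 1-2 KO. With 3 and 6 tested genes, the number called says little about a class. All 3 negative acute-phase genes, TF, TTR and AHSG, were called higher in 1-1 KO, and in 1-2 KO AHSG was higher while TF and TTR were lower. Of the 6 tested positive acute-phase genes, SERPINA1 and HPX were higher and ORM1, ORM2 and CP lower in 1-1 KO, and ORM1 and ORM2 were higher and HP, HPX and CP lower in 1-2 KO. The signed median log2 fold change of the 9 genes was 0.38 in 1-1 KO against WT, -0.15 in 1-2 KO against WT and -0.34 in 1-2 KO against 1-1 KO. Over all tested genes it was 0.01, 0.02 and 0.01.

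**Figure D3:**
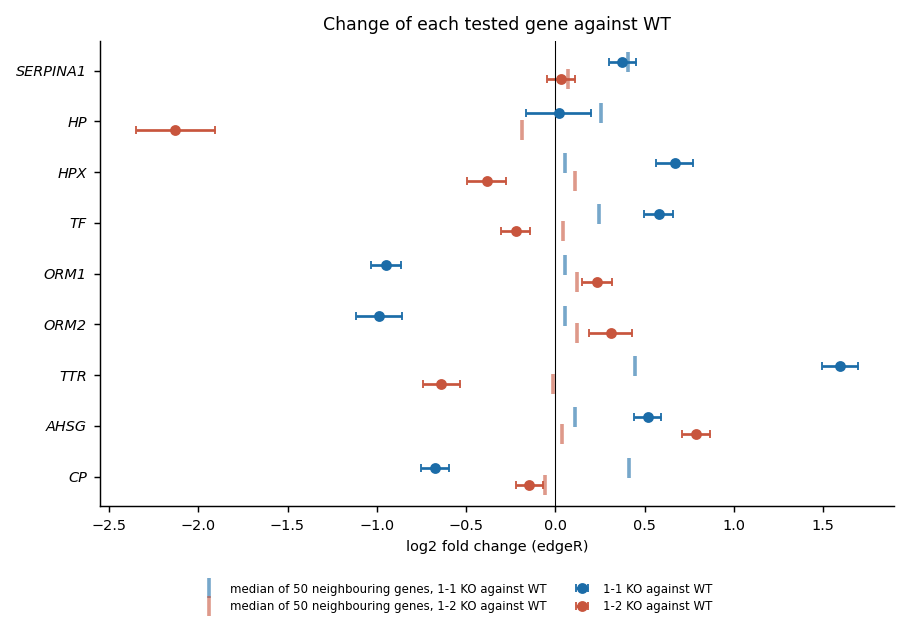
Log2 fold change (x axis, edgeR) of the 9 tested genes against WT, in blue for 1-1 KO and red for 1-2 KO, with bars for the approximate 95% interval, and vertical marks for the median of the 50 nearest tested genes on the chromosome. SERPINA1 in 1-1 KO lay at its neighbours' median (0.38 and 0.41), whereas CP lay at -0.68 beside neighbours at 0.41.

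Levels were compared between genes as CPM per kb of coding sequence of the main annotated transcript, since the counts themselves grow with length. In WT the order was TF at 729, SERPINA1 at 671, AHSG at 329, ORM1 at 265, TTR at 253, HPX at 65.6, ORM2 at 48.6, CP at 19.2 and HP at 4.54 CPM per kb, with SERPINA3 at 0.0373. No pair of neighbours in this order overlapped between libraries. In 1-1 KO TTR stood at 762 CPM per kb, behind TF at 1089 and SERPINA1 at 870 and ahead of AHSG at 471, and no neighbours overlapped. ORM1 had fallen to 137 and lay just above HPX at 104.2. In 1-2 KO SERPINA1 led at 686 CPM per kb, followed by TF at 625 and AHSG at 568, of which TF and AHSG overlapped. ORM2 at 60.3 and HPX at 50.3 also overlapped there, and had the reverse order in WT. Reads in untranslated parts count toward these values, and the order depends on the length used. The main annotated transcript of TF has 20166 bases, of which 2094 are coding, and per kb of whole transcript the WT levels were 279.8 for SERPINA1, 230 for AHSG, 209 for ORM1, 181 for TTR and 75.7 for TF.

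**Figure D4:**
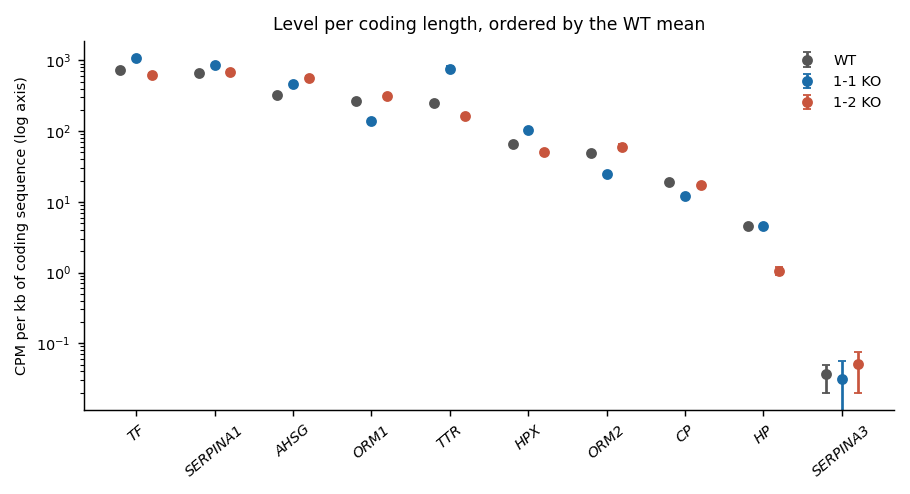
Level of each gene in CPM per kb of coding sequence (log axis), ordered by the WT mean, with points for the mean of 3 libraries and bars from the lowest to the highest library. From TF at 729 to HP at 4.54 CPM per kb the WT means fell in steps, TTR moved up to 762 in 1-1 KO, and HP moved down to 1.04 in 1-2 KO.

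For each gene the 3 genes whose profile over the 9 libraries was most like it were found among 13350 candidates, by the root mean square difference of log2 CPM relative to the WT mean. ORM1 and ORM2 were each other's nearest gene, at 0.0561. CP had the closest matches, UBA6, an enzyme that activates ubiquitin, at 0.0211, followed by MTMR6 and SH3KBP1. SERPINA1 was nearest to NPC1, the lysosomal cholesterol exporter (0.0307), TF to NBR1, an autophagy receptor (0.0435), HPX to PFKM, muscle-type phosphofructokinase (0.0455), and AHSG to AKAP7 (0.0551), with F5, coagulation factor V, second. TTR and HP, with the largest changes, had looser matches, SPOCK2 at 0.102 and SULT1A2, a sulfotransferase, at 0.155. With 3 lines a profile amounts to 2 fold changes and the spread between libraries.

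Genes with related products were taken as further lists. The list of other acute-phase genes held 18 genes. Those not tested were CRP, APCS, SAA1, SAA2, LBP, ITIH4 and LCN2, with at most 9 counts in a library, so they do not enter the numbers below. Of the other acute-phase genes, 6 of 11 tested were higher and 4 lower in 1-1 KO (median 0.39), and 3 were higher and 7 lower in 1-2 KO (median -0.85), where 63.4% and 54.4% of all tested genes were called. In 1-2 KO against 1-1 KO 2 were higher and 8 lower (median -0.68), where 65.3% of all tested genes were called. FGL1, a hepatokine of the fibrinogen family, fell by 1.18 in 1-1 KO and rose by 0.32 in 1-2 KO, as ORM1 and ORM2 did. The fibrinogen chains FGA and FGG rose by 0.54 and 0.46 in 1-1 KO and fell by 0.97 and 0.93 in 1-2 KO, the directions of HPX, TF and TTR. Among the other plasma carriers 10 of 12 tested genes were higher in each knockout line. Of all tested genes 32.5% were higher in 1-1 KO and 28.2% in 1-2 KO. AFP, alpha-fetoprotein, rose by 2.22 and 2.08 and ALB, albumin, by 1.90 and 0.90, whereas SELENOP, the selenium carrier, rose by 0.18 in 1-1 KO and fell by 1.47 in 1-2 KO, beside neighbours with a median of -0.90. AHSG had the direction of AFP and ALB in both lines, and TTR only in 1-1 KO.

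In the list of IL-6-type signalling genes, which also holds inhibitors, 3 of 17 tested were higher and 7 lower in 1-1 KO. In 1-2 KO 4 were higher and 8 lower. The share called was 58.8% in 1-1 KO and 70.6% in 1-2 KO, where 63.4% and 54.4% of all tested genes were called. OSMR, the oncostatin M receptor subunit, fell by 2.75 ± 0.05 (log2, SE) in 1-2 KO (6.75-fold, adjusted p = 6.53e-14) and by 0.42 in 1-1 KO. Its 50 neighbours had a median of -0.97 in 1-2 KO, and LIFR, the LIF receptor nearby, fell there by 1.03 with a neighbours' median of -0.93. TYK2, a JAK family kinase, rose by 0.51 and 0.55, and PIAS3, an inhibitor of STAT3, fell by 0.78 in 1-1 KO and had a log2 fold change of -0.09 in 1-2 KO (adjusted p = 0.286). In the IL-1 and NF-kB list 8 of 21 tested genes were higher and 12 lower in 1-1 KO, and 5 higher and 4 lower in 1-2 KO. The share called here was 95.2% in 1-1 KO and 42.9% in 1-2 KO, beside 63.4% and 54.4% of all tested genes. IL1RAP, the shared IL-1 receptor subunit, rose by 0.70 in 1-1 KO and stood at 0.02 in 1-2 KO (adjusted p = 0.719). NFKB2 and TNFAIP3, the latter a feedback inhibitor, fell by 0.66 and 0.64 in 1-1 KO and rose by 0.13 and 0.65 in 1-2 KO, and NFKBIA, which holds NF-kB in the cytoplasm, rose by 0.18 and 0.68. The call of NFKB2 in 1-2 KO (adjusted p = 0.0323) was lost with DESeq2 (0.0669) and without 1-2 KO replicate 1 (0.0986), 1-2 KO replicate 2 (0.0569), WT replicate 1 (0.0676) or WT replicate 2 (0.151). LIFR in 1-1 KO, with a log2 fold change of -0.09 (adjusted p = 0.0777), was called without WT replicate 3 (-0.13, adjusted p = 0.00708) and with the neighbours' median subtracted (-0.26, adjusted p = 8.36e-05).

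Hepatocyte transcription factors were higher in 7 and lower in 4 of 13 in 1-1 KO, and higher in 9 and lower in 1 in 1-2 KO. The share called was 84.6% and 76.9%, where 63.4% and 54.4% of all tested genes were called. FOXA1 and ONECUT2 fell by 0.72 and 0.66 in 1-1 KO and rose by 0.31 and 0.18 in 1-2 KO, the directions of ORM1 and ORM2. With the neighbours' median subtracted, ONECUT2 was not called in 1-2 KO (0.00922, adjusted p = 0.860). Of all tested genes 11.7% were called in opposite directions in the comparisons with WT, and a link of these factors to ORM1 and ORM2 was not tested. NR5A2 rose by 0.22 and 0.56 and ONECUT1 by 0.43 and 0.83, larger in 1-2 KO in the direct comparison (log2 fold changes 0.34 and 0.39), as was AHSG.

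Among the paralogues and cluster neighbours 7 of 10 tested genes were higher and 1 lower in 1-1 KO, and 4 higher and 2 lower in 1-2 KO. The share called was 80% and 60%, where 63.4% and 54.4% of all tested genes were called. HEPH, hephaestin, the membrane ferroxidase related to ceruloplasmin, had 2, 3 and 2 counts in WT, 526, 511 and 468 in 1-1 KO and 68, 96 and 82 in 1-2 KO. With WT at the floor of 3 counts per library it was at least 145-fold higher in 1-1 KO and at least 24.2-fold higher in 1-2 KO, whereas CP was lower in both lines. HEPHL1, a further relative with at most 21 counts, was not called. MELTF, the membrane-bound relative of transferrin, rose by 1.39 and 1.37, whereas TF rose in 1-1 KO and fell in 1-2 KO.

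The last list held proteins that export, load or take up the carriers. Of its 16 tested genes 9 were higher and 4 lower in 1-1 KO, and 8 higher and 4 lower in 1-2 KO. The share called was 81.25% and 75%, where 63.4% and 54.4% of all tested genes were called. SLC40A1, ferroportin, the iron exporter that works with ferroxidases such as ceruloplasmin, rose by 0.88 and 0.26, and ATP7B, which loads copper onto ceruloplasmin, by 0.55 and 0.28. STRA6, the receptor for retinol-binding protein, had 2, 8 and 4 counts in WT, 13, 29 and 15 in 1-1 KO and 550, 504 and 575 in 1-2 KO, a rise of 6.66 ± 0.25 (log2, SE) in the latter. LRP2, megalin, an uptake receptor for transthyretin and other carriers, rose by 1.19 and 2.43. TFRC, the transferrin receptor, was chosen after its values were seen, fell by 0.26 in 1-1 KO, where TF rose, and had a log2 fold change of 0.07 in 1-2 KO (adjusted p = 0.103), which was called without 1-2 KO replicate 1 (0.10, adjusted p = 0.0121) and with scaling by library size alone (0.13, adjusted p = 0.00349).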

How the data were processed

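The 9 libraries were made from total RNA with a stranded mRNA kit and sequenced as paired reads. According to the study's methods and the submitters' processing notes, the authors used STAR for alignment to the human genome hg38 (GRCh38) and featureCounts for counting. The deposited values are these counts, without normalization. Tool versions, the use of strand in counting and the treatment of reads with several matches were not given in the sources used here, which bears on ORM1 and ORM2, HP and HPR, and CP and HPS3. Of 60664 identifiers, 60463 were in GENCODE 44, which gave symbols and positions, and the other 201 held 0.0192% of the counts.

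Counts were tested with edgeR 4.0.16 in R 4.3.3 (filterByExpr with a minimum count of 10 and total of 15, TMM, 1 fit of all 9 libraries with a term per line, quasi-likelihood test), with Benjamini-Hochberg adjustment across the 17207 tested genes and a threshold of 0.05. The biological coefficient of variation was 5.55%. CPM used TMM library sizes. Standard errors were derived from the log2 fold change and the F statistic of the test. The 95% intervals are approximate, 1.96 standard errors to each side. They are narrower than the quasi-likelihood test implies, and can exclude 0 where its p is over 0.05. A floor of 3 counts per library covers counting error only. The steps were tested on simulated data. The alternatives were DESeq2 1.42.0, other scalings, filters, thresholds and samples in the fit, a replicate block, summed paralogues, subtraction of the median of the 50 nearest tested genes, and leaving out each library. Figures and joins used Python 3.11.15, pandas 2.3.3, numpy 2.4.6 and matplotlib 3.10.9.

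The members, the lists and the tests were chosen with earlier results of these data known. Genes outside the group were named by a rule, all genes of a list with at most 10 tested genes, otherwise the 2 with the smallest adjusted p in each comparison with WT, and always HPR. Overlapping genes, the targeted genes, markers, the acute-phase genes not tested, SERPINA6, HRG, RBP4, TFRC and HAMP were named outside this rule.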

Additional observations from a re-analysis of the deposited data

Results flagged for a closer look

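For 5 of the 10 genes the knockout lines moved away from WT in opposite directions, each call passing edgeR's quasi-likelihood test, and the lines differed from each other in the direct comparison. Calls in both comparisons with opposite direction were made for 2012 genes, 11.7% of those tested, and since the comparisons share the WT libraries the direct comparison is the test of the difference. TTR had a log2 fold change of 1.59 in 1-1 KO and -0.64 in 1-2 KO, and of -2.23 in 1-2 KO against 1-1 KO (adjusted p = 2.56e-13). HPX had 0.67 and -0.39, with a direct value of -1.05 (adjusted p = 6.31e-10), and TF 0.58 and -0.22, with a direct value of -0.80 (adjusted p = 6.00e-10). ORM1 and ORM2 went the other way, with -0.95 and 0.23 and a direct value of 1.18 for ORM1 (adjusted p = 2.11e-11), and -0.99 and 0.31 and a direct value of 1.30 for ORM2 (adjusted p = 4.12e-10). In each of these genes all 3 libraries of 1 knockout line lay above WT and all 3 of the other below it. Since the genes were picked by their calls in opposite directions, this separation largely follows from the choice and adds no support. ORM1 and ORM2 are also not separate cases, since 50.1% of the 50-base words of ORM2 occur in ORM1 and their reads may be shared.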

How the results depend on the processing

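For the 9 tested genes, 564 log2 fold changes were recomputed under the alternatives, and 540 kept direction and side of the threshold. The added requirement of an absolute log2 fold change over 1 ended 18 calls. With it 1 member was called in 1-1 KO against WT (1 higher, 0 lower), 1 in 1-2 KO against WT (0 higher, 1 lower) and 5 in 1-2 KO against 1-1 KO (2 higher, 3 lower), and all genes called numbered 2300, 2010 and 2434 in place of 10915, 9355 and 11229. The other lost calls were CP in 1-2 KO against WT with library size alone and with the neighbours' median subtracted, and SERPINA1 in 1-1 KO against WT and in 1-2 KO against 1-1 KO with it subtracted. With library size alone SERPINA1 in 1-2 KO against WT was called higher (0.0868, adjusted p = 0.0481).

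With the median of the 50 neighbouring genes subtracted, the log2 fold change turned for SERPINA1 (-0.0333) and HP (-0.234, adjusted p = 0.0451) in 1-1 KO against WT, and for LIFR (0.167), SERPINA10 (0.263) and ATP7B (0.00885) in 1-2 KO against 1-1 KO. The same subtraction ended calls of FGG, TYK2, NFKBIA, SELENOP, SERPINA10 and HPR in 1-1 KO against WT, of LIFR and ONECUT2 in 1-2 KO against WT and of HRG in 1-2 KO against 1-1 KO. It added calls of LIFR in 1-1 KO against WT, SERPINA5 in 1-2 KO against WT and TYK2 in 1-2 KO against 1-1 KO. By construction it removes what a gene shares with its region. Leaving out each library in turn changed no member's call. Scaling by library size alone put 56.9% of the called genes higher in 1-1 KO against WT, in place of 51.3%, and 60.1% in 1-2 KO against WT, in place of 51.8%.

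Correlations of same-numbered libraries lay between -0.152 and 0.0372, and those of differently numbered libraries between -0.111 and 0.189. With 3 libraries per line these values cannot show whether the numbers pair the libraries. With a replicate block 8, 8 and 9 members were called in the 3 comparisons, as without it, and HPR in 1-1 KO against WT was not called (adjusted p = 0.0522). Depth limits SERPINA3 and genes with few counts such as HPR, HEPHL1, FETUB and SERPINA11, and each genotype was 1 line.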

Other observations

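HAMP, the gene of the iron hormone hepcidin, was singled out after its values were seen. It had 91, 87 and 61 counts in WT, 22, 18 and 14 in 1-1 KO and 247, 300 and 424 in 1-2 KO. It fell by 2.32 ± 0.28 (log2, SE) in 1-1 KO (5.03-fold, adjusted p = 5.90e-06) and rose by 1.86 ± 0.19 in 1-2 KO (3.67-fold, adjusted p = 1.33e-06), by edgeR's quasi-likelihood test. HAMP was 18.4-fold higher in 1-2 KO than in 1-1 KO (adjusted p = 2.09e-09), the direction of ORM1, ORM2 and FGL1 and the reverse of TF and HPX. The lines did not overlap.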
